A study of Mus musculus with 6 samples.

Results

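Cardiac fibroblasts are the matrix-producing mesenchymal cells between the muscle fibres of the heart, and most of those in the ventricle descend from the epicardium during development. No single transcript defines them, so they are usually recognised by a panel of surface receptors, cell-surface proteins and cytoskeletal proteins, most of which other cells of the heart also make to some degree. The 7 genes described here are such a panel, kept apart from the collagens. They are the receptor tyrosine kinases Pdgfra and Ddr2, the surface glycoprotein Thy1, the membrane protease Fap, the secreted protein dermatopontin (Dpt), the intermediate filament protein vimentin (Vim) and the calcium-binding protein S100a4. They were taken by symbol from a table of 39171 mouse genes, where each symbol matched 1 row, and all 7 passed the filter on low values. The members were listed by symbol, not by any measured value.

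The data are poly(A) RNA profiles of ventricles from wild-type mice of the outbred CD-1 stock. Pups were 1 day old (P1) in 3 libraries and 2 days old (P2) in the other 3. Both ages are unmanipulated wild type, with no transgene or agent named in the labels, and the extraction protocol counts 3 hearts per age without naming litters, sexes or pools. Values are FPKM, fragments scaled to transcript length and to the size of the library, so the levels of different genes can be set in order. In bulk ventricle, fewer fibroblasts and less RNA per fibroblast cannot be told apart, and the members' levels are averages over all cells of the sample.

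The comparison of P2 with P1 asks whether the fibroblast panel of the ventricle moves within 1 day of early postnatal life. In limma's moderated test on log2(FPKM + 1), adjusted by Benjamini-Hochberg over the 13624 genes that averaged 1 FPKM or more, 0 of the 7 members passed an adjusted p of 0.05. Over all tested genes the share that passed was 0.161%, with 0.0734% higher and 0.0881% lower in P2. At an unadjusted limma p under 0.05, 2 members were higher (Thy1 and Dpt) and 0 lower, where all tested genes gave 10.7% higher and 7.89% lower. The log2 change was above 0 for 6 of the 7 members, with a median of 0.13, while it was above 0 for 54.7% of all tested genes, with a median of 0.01. That count was also 6 of 7 with scaling by median ratios (members' median 0.12) and with quantile normalization (0.10), but not with equal FPKM sums. As deposited, the sums lay between 716968 and 754510 FPKM in P1 and between 807632 and 858436 in P2. With each library rescaled to an equal FPKM sum, the median of all genes was -0.14 and that of the members -0.04, and 3 of 7 members were above 0. As deposited and under each of these scalings, 6 of 7 lay above the median of all genes. Scaling by sums or ratios shifts all genes of a library nearly alike, so it could hardly change that count. It was 5 of 7 without P2 replicate 1, and 7 of 7 without P1 replicate 3 or without P2 replicate 3.

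Libraries within an age were not alike in fibroblast transcripts, and this touches several results below. Among the 20 genes of a fibroblast matrix list (collagens, small proteoglycans and other secreted matrix proteins), P1 replicate 2 was the lowest P1 library for 20 and P2 replicate 2 the lowest P2 library for 15. Over all tested genes, P1 replicate 2 was lowest for 3959 and P2 replicate 2 for 3622 of 13624. The 4 atrial markers also differed between libraries. Sln, a calcium pump regulator of atrial muscle, was at 48.5, 27.6 and 37.4 FPKM in P1 replicates 1 to 3 and at 17.6, 5.76 and 40.5 in P2 replicates 1 to 3. Myl7 and Myl4 were also lowest in replicate 2 within P2, at 103 and 119 FPKM. Nppa went the other way and was highest there, at 177, 336 and 160 FPKM in P2 replicates 1 to 3. The summed atrial markers lay between 944 and 1494 FPKM in P1 and between 540 and 770 in P2. The part of atrial tissue in the members' values was not tested.

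**Figure D1:**
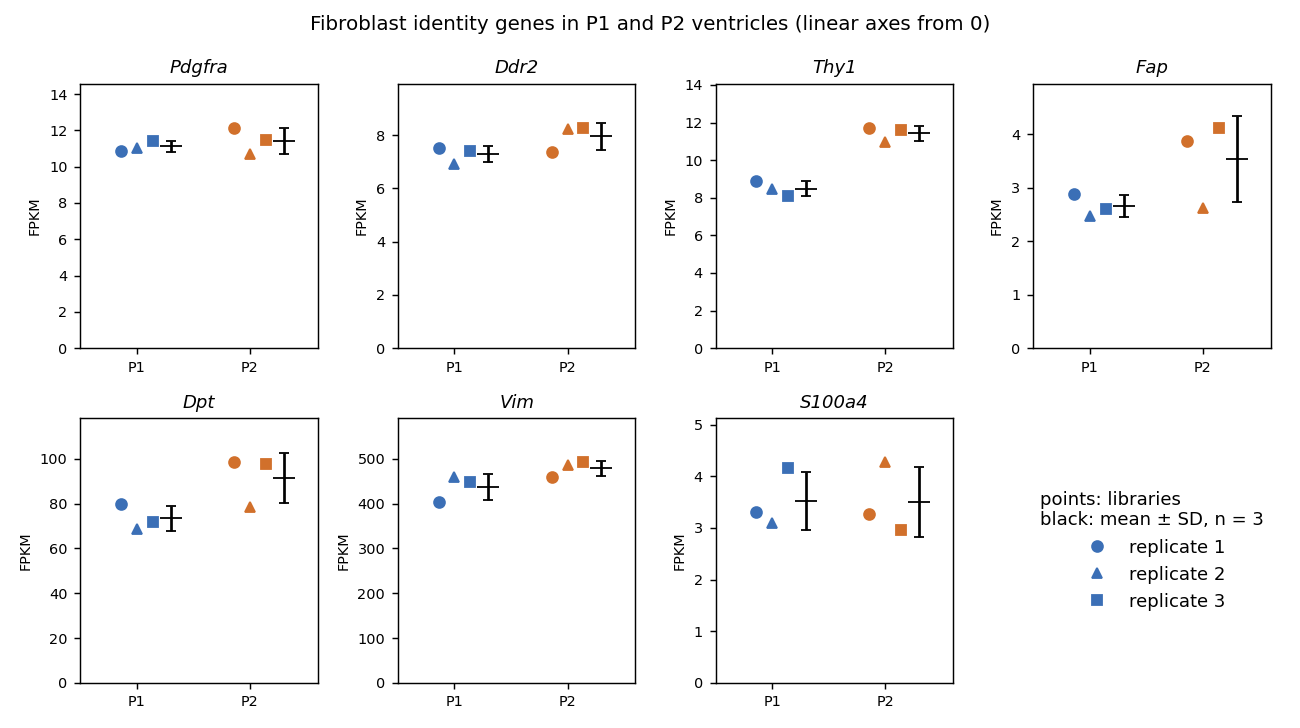
FPKM of the 7 members in each of the 6 libraries (symbols mark the replicate number, blue P1, orange P2), with the mean and SD of 3 libraries in black, on linear axes that start at 0. The ages are separate for Thy1 and for Vim and overlap for the other 5, and P2 replicate 2 lies with the P1 libraries for Fap and Dpt. Of all tested genes, 14.4% have every P2 value above every P1 value and 10.6% every P2 value below.

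Pdgfra and Ddr2 are the receptors of the panel. Pdgfra encodes the alpha receptor for platelet-derived growth factors, which marks resident fibroblasts of the heart and signals for their growth and survival. It was measured at 10.9, 11.03 and 11.4 FPKM in P1 and at 12.1, 10.7 and 11.4 FPKM in P2. The ages overlap, with both the highest and the lowest value in P2 (replicates 1 and 2). The means were 11.1 ± 0.281 and 11.4 ± 0.727 FPKM (SD, n = 3 each), a log2 change of 0.04 with a 95% interval from -0.09 to 0.17 (limma, Benjamini-Hochberg adjusted p = 0.748). For the deposited scaling only, this interval limits a change in either direction to a small fraction of the level. The sign of the change turned without P2 replicate 1 (-0.01). With equal FPKM sums the change was -0.12, outside that interval. There the median of all tested genes was -0.14, so Pdgfra stayed just above that median.

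Ddr2 encodes discoidin domain receptor 2, which is activated by fibrillar collagen and not by a soluble ligand. Its values were 7.51, 6.94 and 7.42 FPKM in P1 and 7.38, 8.24 and 8.28 FPKM in P2. P2 replicates 2 and 3 were above every P1 library, and P2 replicate 1 lay within the P1 range. The log2 change was 0.11 (95% interval -0.03 to 0.25, limma, Benjamini-Hochberg adjusted p = 0.361), and -0.04 with equal FPKM sums.

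Among 106 other tested genes of related lists, the centred log2 profiles nearest to that of Pdgfra were those of the peptidase gene Dpp8 and of fibulin 2 (Fbln2), with root mean square differences of 0.05 over the 6 libraries. This is close to the 0.06 of the Pdgfra profile itself, since none of the 3 varied much. For Ddr2 they were Src, a kinase that acts downstream of DDR2, with 0.03, and Pcolce, an enhancer of procollagen processing, with 0.05, against 0.08 for the Ddr2 profile itself.

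The sister receptors were more abundant than the members at both ages. Pdgfrb, the beta receptor that marks pericytes and is also present on fibroblasts, was at 22.2 ± 1.302 FPKM in P1 and 21.9 ± 0.516 in P2. Ddr1, which is typical of epithelial cells, was at 60.6 ± 1.61 and 59.9 ± 3.204 FPKM. Neither passed the test. The log2 ratio of Ddr2 to Ddr1, which does not depend on how libraries are scaled apart from the added pseudocount, was -2.89 ± 0.0210 in P1 and -2.77 ± 0.111 in P2. The ages were separate, with an exact two-sided permutation p of 0.1, the smallest that 3 against 3 can give. The log2 ratio of Pdgfra to Pdgfrb was -0.94 ± 0.0640 and -0.88 ± 0.108, with an exact two-sided permutation p of 0.5.

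The ligands of the PDGF receptors, listed together with Pdgfrb, did not pass the test either. Of this list, 0 of 5 genes were called in limma after Benjamini-Hochberg adjustment. At an unadjusted p under 0.05, 2 ligands were higher and 1 lower, where all tested genes gave 10.7% higher and 7.89% lower. Pdgfa, a ligand of the alpha receptor, was at 21.5 ± 0.749998 FPKM in P1 and 19.9 ± 0.588 in P2, and all P2 values lay below all P1 values. Pdgfc, also a ligand of the alpha receptor, was at 1.36 ± 0.0968 and 1.78 ± 0.124 FPKM. Pdgfd, a ligand of the beta receptor, was at 3.80 ± 0.403 and 4.74 ± 0.590. For these 2, the ages were separate with P2 higher. Their log2 differences were -0.11, 0.24 and 0.26. Over all tested genes, 14.4% had every P2 value above every P1 value and 10.6% every P2 value below. Of 8 tested relatives and partners of DDR2, 0 were called and the median log2 change was -0.05. The matrix protease Mmp14 was at 45.6 ± 1.83 and 43.2 ± 2.26 FPKM, and the adaptor Shc1 at 33.6 ± 1.28 and 31.5 ± 1.48. Mmp2, also a matrix protease, was at 56.8 ± 1.08 and 53.1 ± 5.32.

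Thy1 had the clearest separation of the ages. It encodes a glycoprotein held to the outer cell surface by a lipid anchor, known from T cells and neurons and used to sort cardiac fibroblasts. Thy1 was measured at 8.87, 8.49 and 8.11 FPKM in P1 and at 11.7, 10.96 and 11.6 FPKM in P2. Every P2 library was above every P1 library, and the gap between the ages was wider than the range within either. The means were 8.49 ± 0.380 and 11.4 ± 0.407 FPKM, a ratio of 1.35. The log2 change of 0.39 ± 0.05 (SE, 95% interval 0.27 to 0.51, limma, unadjusted p = 0.000177, Benjamini-Hochberg adjusted p = 0.0662) did not pass.

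The call on Thy1 turned on the processing. Its Benjamini-Hochberg adjusted p in limma was 0.0473 with a pseudocount of 0.1, 0.0452 with a filter of 5 FPKM and 0.0402 with equal FPKM sums, where its log2 change was 0.23. It lay between 0.0854 and 0.112 with quantile normalization, scaling by median ratios, without the filter or without the variance trend, and between 0.121 and 0.223 with any 1 library left out, while the log2 change stayed between 0.36 and 0.42 in those 6 fits.

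Markers of other cells that carry THY1 were low. All 7 T cell markers were under 0.5 FPKM in every library, and Cd3e, which encodes a chain of the T cell receptor complex, was at most 0.0474 FPKM. Of 8 nerve and Schwann cell markers, 6 were under 0.5 FPKM in every library. Of the integrin and syndecan genes whose proteins bind THY1, 4 were tested and 0 called. Itgav, the alpha-v integrin subunit, was at 8.72 ± 0.708 and 9.90 ± 0.503 FPKM, and its partner Itgb3 at 2.01 ± 0.190 and 2.38 ± 0.246. Itgb5 was at 37.8 ± 0.989 and 35.8 ± 1.88 FPKM.

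Fap and Dpt varied together from library to library. Fap encodes fibroblast activation protein, a membrane-bound prolyl peptidase that is low in resting fibroblasts of adult tissue and high in remodelling tissue. It was measured at 2.88, 2.47 and 2.60 FPKM in P1 and at 3.87, 2.62 and 4.12 FPKM in P2. P2 replicates 1 and 3 were above every P1 library, and P2 replicate 2 lay inside the P1 range. The means were 2.65 ± 0.206 and 3.54 ± 0.804 FPKM. The log2 change was 0.30 ± 0.14 (SE, 95% interval -0.04 to 0.64, limma, Benjamini-Hochberg adjusted p = 0.319). Without P2 replicate 2 it was 0.45 (adjusted p = 0.198), which did not pass either.

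Dpt encodes dermatopontin, a small secreted protein that binds decorin and collagen and takes part in matrix assembly. Its values were 79.8, 68.8 and 71.8 FPKM in P1 and 98.4, 78.5 and 97.5 FPKM in P2. As for Fap, P2 replicates 1 and 3 were the highest libraries, P2 replicate 2 lay under P1 replicate 1, and P1 replicate 2 was the lowest. The means were 73.5 ± 5.68 and 91.4 ± 11.2 FPKM, and the log2 change was 0.31 ± 0.10 (SE, 95% interval 0.06 to 0.56, limma, unadjusted p = 0.0241, Benjamini-Hochberg adjusted p = 0.210). Without P2 replicate 2 the log2 change was 0.41 (limma, Benjamini-Hochberg adjusted p = 0.192). With equal FPKM sums the values were 0.14 for Dpt and 0.17 for Fap.

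The log2 ratio of Fap to Dpt was -4.35 ± 0.0284 in P1 and -4.36 ± 0.0957 in P2, a difference of -0.01 (0.07 with a pseudocount of 0.1), although Dpt was far more abundant. Among 106 other tested genes of the related lists, Dpt had the profile nearest to Fap, and Fap the profile nearest to Dpt, with a root mean square difference of 0.06 in centred log2 values over 6 libraries. The 2 profiles themselves had root mean squares of 0.22 for Fap and 0.20 for Dpt. The next nearest to Fap was Cthrc1, a secreted protein of activated fibroblasts, at 6.03 ± 0.449 FPKM in P1 and 8.39 ± 1.64 in P2. The next nearest to Dpt was decorin (Dcn), which was also nearest to Thy1, with a root mean square difference of 0.05 from Thy1 and 0.07 from Dpt. Lmna, which encodes the nuclear A-type lamins, followed for Thy1.

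The peptidases related to FAP differed in their spread, from a residual SD of 0.02 for Dpp8 to 0.23 for Dpp7, a lysosomal peptidase at 3.23, 2.60 and 4.03 FPKM in P1 and 3.09, 3.42 and 4.51 in P2. Dpp4, the closest relative, was at 3.62 ± 0.306 FPKM in P1 and 3.73 ± 0.471 in P2, near the level of Fap. Relative to Dpp4, the log2 ratio of Fap was -0.34 ± 0.173 in P1 and -0.07 ± 0.296 in P2, with an exact two-sided permutation p of 0.3. Of the 5 relatives tested, 0 were called, and the median log2 change was 0.04. The cytosolic peptidases Prep, Dpp8 and Dpp9 were at 36.4 ± 2.65, 27.8 ± 0.352 and 14.3 ± 0.136 FPKM in P2, against 33.9 ± 2.68, 27.1 ± 0.351 and 14.7 ± 0.690 in P1.

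Of 6 partners of DPT tested, 0 were called and 2 had an unadjusted limma p under 0.05. These 2 were higher in P2, as were 10.7% of all tested genes at that p. Dcn was at 204, 178 and 186 FPKM in P1 and at 252, 226 and 243 in P2, with the ages separate. Fbn1, which encodes fibrillin 1, was at 38.1 ± 2.87 and 43.6 ± 2.53 FPKM. Tgfb1, whose protein binds to both decorin and dermatopontin, was at 10.1 ± 0.331 and 9.64 ± 0.496. The log2 differences of these 3 genes were 0.35, 0.19 and -0.06.

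**Figure D2:**
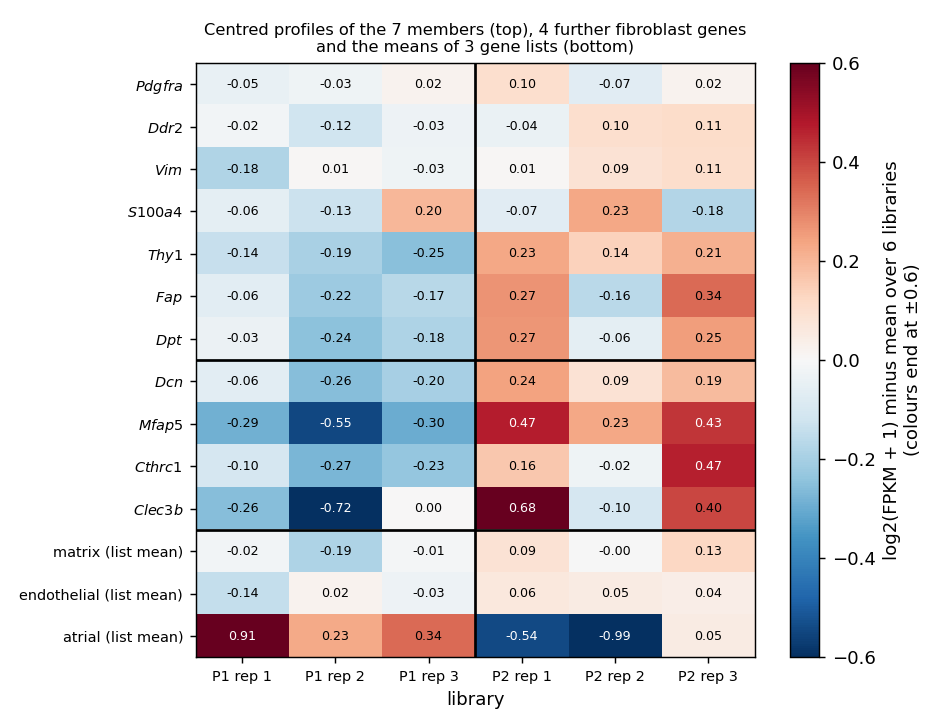
Centred log2(FPKM + 1) values by library for the 7 members, for 4 further fibroblast genes and for the means of the matrix, endothelial and atrial lists. Fap and Dpt are below their means in P2 replicate 2 (-0.16 and -0.06), while Vim lies near the endothelial mean and is lowest in P1 replicate 1 (-0.18).

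Vim was by far the most abundant member. Vimentin forms the intermediate filaments of mesenchymal cells, and in the heart it is made by endothelial cells, mural cells and leukocytes as well as by fibroblasts. Its values were 404, 460 and 449 FPKM in P1 and 460, 485 and 492 FPKM in P2. The ages did not overlap, but P2 replicate 1 at 459.7 was only just above P1 replicate 2 at 459.5. The means were 437 ± 29.7 and 479 ± 17.1 FPKM, and the log2 change was 0.13 ± 0.06 (SE, 95% interval -0.02 to 0.28, limma, Benjamini-Hochberg adjusted p = 0.307). It was -0.04 with equal FPKM sums and 0.08 without P1 replicate 1.

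Vim did not share the library pattern of the matrix genes. The lowest Vim value was in P1 replicate 1, the library in which all 8 endothelial markers and 5 of 7 pericyte markers were lowest within P1. Over all tested genes, that library was the lowest of P1 for 6172 of 13624. P1 replicate 2, lowest in all 20 matrix genes, had the highest Vim value of P1. Of 19 list means compared over the 6 libraries, a comparison chosen after the values were seen, the endothelial mean was nearest to Vim, with a root mean square difference of 0.04. The pericyte mean followed closely with 0.05. For the matrix mean this was 0.11, which ranked 13. For Dpt, Fap and Thy1 the matrix mean was the nearest of the 19, with 0.12, 0.15 and 0.14. For Pdgfra the nearest was the mean of 19 other fibroblast identity genes, with 0.03. Among single genes, those nearest to Vim were Lmnb2, a nuclear lamin, and S100a16, with 0.05 and 0.06 against 0.09 for Vim itself. The endothelial markers summed to between 389 and 438 FPKM in P1 and between 443 and 454 in P2, and their part in the level of Vim was not tested.

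Desmin (Des), the intermediate filament protein of muscle, was at 328 ± 13.2 FPKM in P1 and 352 ± 15.5 in P2, so transcripts of the mesenchymal and the muscle filament were of similar abundance. Between them the log2 ratio was 0.41 ± 0.136 in P1 and 0.44 ± 0.102 in P2, with an exact two-sided permutation p of 0.9. Of 11 tested genes of the intermediate filament list, 0 were called in limma. Lmna was at 40.7, 38.2 and 42.9 FPKM in P1 and at 51.1, 48.8 and 50.3 in P2, a log2 difference of 0.30 with the ages separate (Benjamini-Hochberg adjusted p = 0.105), and 0.13 with equal FPKM sums. Krt19, a keratin of epithelia and of the epicardium, was at 3.39 ± 0.497 and 2.503 ± 0.371 FPKM.

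S100a4 was among the lowest members, and its ages covered nearly the same range. It encodes a small calcium-binding protein, also called fibroblast-specific protein 1, although leukocytes also make it. Its values were 3.30, 3.10 and 4.15 FPKM in P1 and 3.27, 4.27 and 2.97 FPKM in P2, with the highest and the lowest value both in P2. The means were 3.52 ± 0.557 and 3.50 ± 0.679 FPKM, with a log2 change of -0.01 and a 95% interval from -0.34 to 0.32 (limma, Benjamini-Hochberg adjusted p = 0.984). With 498 bases, the longest annotated transcript of S100a4 was covered by an estimated 54 to 80 fragments per library. Counting error alone gives a coefficient of variation of about 13.6%, against the observed 15.8% in P1 and 19.4% in P2.

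S100a4 lies in a cluster of S100 genes on chromosome 3, and its neighbour S100a6 had separate ages, which S100a4 had not. S100a6, a related calcium-binding protein of fibroblasts and epithelia, was at 18.6, 12.6 and 18.4 FPKM in P1 and at 25.4, 25.7 and 25.8 FPKM in P2. The log2 difference of S100a6 was 0.62 ± 0.14 (SE, limma, Benjamini-Hochberg adjusted p = 0.140). Relative to S100a6, the log2 ratio of S100a4 was -1.94 ± 0.231 in P1 and -2.58 ± 0.210 in P2, and the ages were separate, with an exact two-sided permutation p of 0.1, again the smallest possible. In the list of the S100 family and S100A4 partners, 10 genes were tested and 0 were called in limma. At an unadjusted p under 0.05, 5 were higher (S100a6, S100a10, S100a11, S100a16 and Anxa2) and 1 lower (S100a9, a granulocyte protein). All tested genes gave 10.7% higher and 7.89% lower at that p. S100a11 was at 248 ± 11.6 FPKM in P1 and 293 ± 3.79 in P2. S100a10, the partner of annexin A2, was at 89.2 ± 6.17 and 111 ± 5.35, and S100a16 at 42.9 ± 1.45 and 49.4 ± 0.0545. The log2 differences of these 3 genes were 0.24, 0.31 and 0.20, and 0.07, 0.14 and 0.03 with equal FPKM sums. The profile nearest to that of S100a4 was that of S100a13, at 43.7 ± 2.27 and 46.6 ± 6.37 FPKM, with a root mean square difference of 0.08 against 0.16 for S100a4 itself, followed by the peptidase gene Prep with 0.09.

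Leukocyte markers were measured beside S100a4, and some single ones were above its level. The granulocyte genes S100a8 and S100a9 were at means of 14.9 and 12.4 FPKM in P1 and 9.40 and 6.90 in P2, and the macrophage gene Lyz2 at 14.4 and 13.8. The 9 macrophage markers summed to between 47.3 and 55.0 FPKM in P1 and between 45.02 and 50.5 in P2, and 0 of the 7 tested were called. The 5 granulocyte markers summed to between 20.2 and 38.9 FPKM in P1 and between 15.3 and 19.9 in P2. Their part in the level of S100a4 was not tested.

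The promoters of Vim and S100a4 are shown because these members stand near opposite ends of the range of levels and yet share a core motif. The RefSeq promoter table of GRCm38.p6 held 5 of the 7 members. The motif TATAAA was searched on both strands in the 50 bases before each start, and was found in Vim and S100a4, on the sense strand, and not in the windows of Pdgfra, Ddr2 and Dpt. Of 32851 promoters in that table, 2.63% hold it on the sense strand and 3.50% on either strand. The 30 bases around it are given 5′ to 3′ with the motif in capitals, from chr2:13574266-13574295 and chr3:90603725-90603754, both on the plus strand.
Vim: ttcctaacagtgtTATAAAagcagcgccct
S100a4: agggcctggcagggTATAAAtaggtcagat
The motif begins 32 bases before the start of Vim and 31 before that of S100a4, at mean P1 levels of 437 and 3.52 FPKM.

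The order of the levels was almost the same in every library. Vim was first and Dpt second in all 6, with Vim between 4.67 and 6.68 times as high as Dpt, and Dpt between 6.24 and 8.51 times as high as Pdgfra. Pdgfra and Thy1 came next and were not in a fixed order, since Pdgfra was higher in 4 of the 6 libraries and Thy1 in P2 replicates 2 and 3. Ddr2 followed them in all 6. S100a4 and Fap were last and changed places, with Fap higher in P2 replicates 1 and 3. Vim made up between 77.1% and 82.0% of the summed FPKM of the panel, so a sum over the members is mostly a measure of Vim.

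The levels of Thy1 and Pdgfra stood differently to each other at the 2 ages. The log2 ratio of Pdgfra to Thy1 was 0.35 ± 0.0907 in P1 and -0.0003 ± 0.0416 in P2, and the ages were separate. Thy1 was also higher at P2 relative to Ddr2 (log2 ratio 0.19 ± 0.0741 and 0.47 ± 0.119) and to Vim (-5.53 ± 0.148 and -5.27 ± 0.0859). Relative to Dpt, Fap and S100a4 the ages overlapped. There the log2 ratio of Thy1 differed by 0.08, 0.09 and 0.40, with exact two-sided permutation p of 0.5, 0.8 and 0.3. In all, 26 log2 ratios were compared, 21 between members and 5 with a relative, and 5 reached the exact two-sided permutation p of 0.1. After Benjamini-Hochberg adjustment over the 26 the smallest p was 0.52, so none passed.

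**Figure D3:**
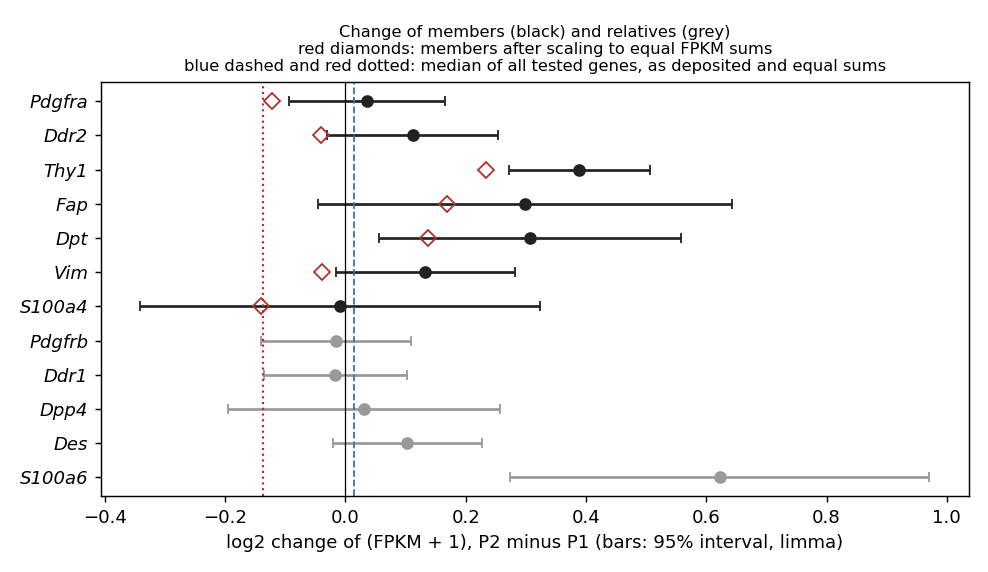
Log2 change of FPKM + 1 from P1 to P2 with its 95% interval (limma) for the 7 members (black) and 5 relatives (grey), with the members' values after scaling to equal FPKM sums as red diamonds and the median of all tested genes as vertical lines. The intervals of Thy1 (0.27 to 0.51), Dpt (0.06 to 0.56) and S100a6 lie above 0, but none of the 3 genes passed the adjusted test.

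Spread within an age differed among the members. The residual SD of log2 values was 0.20 for Fap, 0.19 for S100a4 and 0.15 for Dpt, against a median of 0.08 over all tested genes, and 0.05 for Thy1, 0.06 for Pdgfra, 0.07 for Ddr2 and 0.08 for Vim. For Dpt, an estimated 4310 fragments or more per library give a counting error of at most 1.5%, while its coefficient of variation was 7.73% in P1 and 12.3% in P2. For Thy1, the observed 4.48% and 3.56% were close to the counting error of about 4.3%.

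Other fibroblast genes are given as lists, chosen by knowledge of the cell type, and 0 genes of any of them were called in limma as deposited. Of 19 other fibroblast identity genes, 15 had a positive and 4 a negative log2 change, with a median of 0.03, and 1 was higher and 1 lower at an unadjusted p under 0.05. All tested genes gave 54.7% positive, and 10.7% higher and 7.89% lower at that p. Tcf21, the transcription factor of the epicardial fibroblast lineage, was at 26.7 ± 1.02 and 27.5 ± 2.51 FPKM, as little different as Pdgfra. Clec3b, which encodes tetranectin, was at 15.8, 11.1 and 19.1 FPKM in P1 and at 31.1, 17.7 and 25.5 in P2, low in replicate 2 of both ages. Dpep1, a membrane dipeptidase, was at 5.46 ± 0.508 and 3.94 ± 0.944 FPKM, and Islr, a secreted marker of mesenchymal stromal cells, at 10.4 ± 0.834 and 12.8 ± 2.01.

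Of 20 matrix genes, 6 were higher at an unadjusted limma p under 0.05 and 0 lower, and 7 had the ages separate with P2 higher. The shares of all tested genes were 10.7%, 7.89% and 14.4%. The median log2 change was 0.09, and -0.08 with equal FPKM sums. Mfap5, a microfibril glycoprotein, was at 24.0, 19.8 and 23.8 FPKM in P1 and at 41.2, 34.8 and 40.05 in P2, with a Benjamini-Hochberg adjusted limma p of 0.0669, next to that of Thy1. The proteoglycans Ogn and Aspn had log2 differences of 0.51 and 0.56 with adjusted p of 0.0952 and 0.101. Of 11 activation genes, Cthrc1 was higher at an unadjusted p of 0.0195. The contractile genes of myofibroblasts and smooth muscle, Acta2 (369 ± 77.8 and 303 ± 12.05 FPKM) and Cnn1 (8.57 ± 2.57 and 6.06 ± 0.490), had overlapping ages. Of 12 mesenchymal transcription factors, Zeb2 was at 10.8 ± 0.505 and 12.9 ± 0.797 FPKM with the ages separate, while Prrx2 and Snai2 overlapped, and the median of the list was -0.01.

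**Figure D4:**
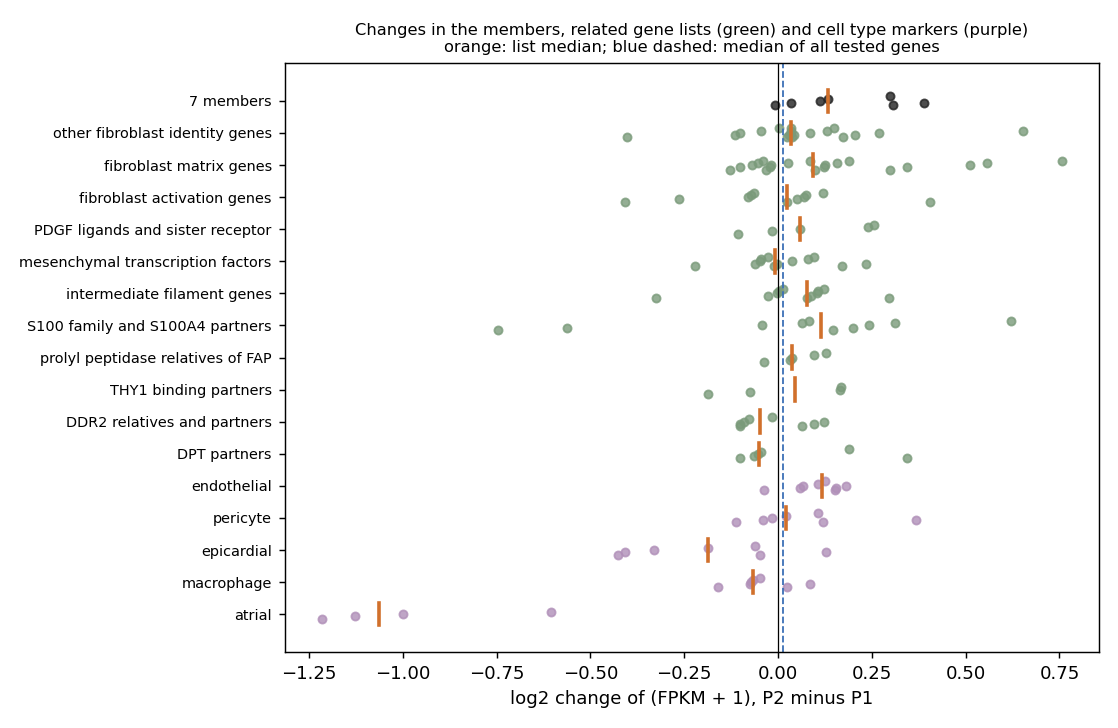
Log2 changes of FPKM + 1 from P1 to P2 for the tested genes of each list, 1 point per gene, with the list median in orange and the median of all tested genes (0.01) as a dashed line. The members' median (0.13) lies to the right of most lists, and the atrial and epicardial markers lie to the left (medians -1.06 and -0.19).

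Markers of other cells gave the setting of these values. Cardiac muscle markers were the most abundant, summing to between 11794 and 12807 FPKM over the 6 libraries. The median log2 change was 0.05 for cardiac muscle, 0.12 for endothelial, 0.02 for pericyte, 0.02 for smooth muscle, -0.07 for macrophage, -0.56 for granulocyte and -0.33 for erythroid markers. Of the 7 epicardial markers, 3 were lower and 1 higher at an unadjusted limma p under 0.05, and 0 were called. All tested genes gave 7.89% lower and 10.7% higher at that p. As deposited, the atrial, epicardial, macrophage, granulocyte and erythroid lists thus had negative medians and the members a positive one. With equal FPKM sums the members' median was -0.04. Whether tissue composition contributed was not tested.

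All 7 members are protein-coding genes, and their positions are given in the GENCODE M21 annotation of GRCm38. Pdgfra (ENSMUSG00000029231) lies on chromosome 5 from 75152292 to 75198215, Thy1 (ENSMUSG00000032011) on chromosome 9 from 44043384 to 44048579, and S100a4 (ENSMUSG00000001020) on chromosome 3 from 90603771 to 90606045. Ddr2 (ENSMUSG00000026674) lies on chromosome 1 from 169972307 to 170110762 and Dpt (ENSMUSG00000026574) on the same chromosome from 164796644 to 164824266. Vim (ENSMUSG00000026728) and Fap (ENSMUSG00000000392) lie on chromosome 2, from 13573927 to 13582826 and from 62500943 to 62574075. Thy1, Vim and Fap overlap no other annotated gene. S100a4 shares 302 exonic bases with Gm42674 on its own strand, which is not analysed here, so fragments from that stretch may come from either gene. Ddr2 shares 90 exonic bases with 3110045C21Rik on the opposite strand, which was at most 0.214 FPKM, and Pdgfra shares exonic bases with genes on the opposite strand that are not analysed here.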

How the data were processed

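Ventricular poly(A) RNA of P1 and P2 mice was measured as FPKM, in 1 table deposited by the authors, whose 6 columns were matched to samples through the labels. Because only the age differs between groups, P2 was compared with P1. Per the submitters' processing notes, TopHat2, Cuffdiff 2.2.1 and R 3.2 were used. Not given in the sources used here are the build, annotation, strand setting, filters and any scaling of libraries. Symbols came from GENCODE M21 for 37605 of 39171 genes.

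FPKM values were used as deposited, and no counts are given. Depth was estimated from the lowest values, where the size of 1 fragment is visible. Genes below 0.05 FPKM gave the size of 1 fragment, between 0.93 and 1.11 times that in P1 replicate 1. Genes with a single transcript over 1500 bases gave about 33200000 to 38700000 fragments per library. Fragment numbers and counting errors are such estimates, and cover counting only.

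The test was limma 3.58.1 (R 4.3.3) on log2(FPKM + 1), age as the only factor, a variance trend, two-sided, Benjamini-Hochberg adjusted over genes that averaged 1 FPKM or more. It was run on simulated data whose planted changes were larger than that of any member. That check does not cover changes of the members' size. Folds on the log2(FPKM + 1) scale understate changes of low genes. Ratios were tested by exact permutation. Named were all members, 1 relative of each of 5 members, the 3 genes of each related list with the smallest p, and the 2 nearest profiles per member. Genes named beyond this rule (Tcf21, Dpp7, Anxa2, S100a8, S100a9, Lyz2, Cd3e, Sln, Myl7, Myl4, Nppa) were chosen after their values were seen. Members and lists were chosen with earlier results of these data known. Alternatives were other pseudocounts, filters and scalings, no trend, a replicate block and each library left out. Tables and plots used Python 3.11.15, pandas 2.3.3, numpy 2.4.6 and matplotlib 3.10.9.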

Additional observations from a re-analysis of the deposited data

How the results depend on the processing

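As deposited, 22 genes were called, with 0 members and 0 genes of the related lists. The calls were 40 with a pseudocount of 0.1, 41 with a filter of 5 FPKM, 2433 with equal FPKM sums (39 higher, 2394 lower), 14 with no variance trend and 5 with the replicate block. Leaving out 1 library gave 5 to 25 calls. Thy1 was the 1 member called with a pseudocount of 0.1 (log2 change 0.42), a filter of 5 FPKM (0.39, 5 members tested) and equal sums (0.23), and 0 members were called with each library left out. Mfap5 was the 1 list gene called with the first 2 of these settings, and 15 list genes were called with equal sums. The members' median moved to -0.0382 with equal sums, and lay between 0.11 and 0.17 with 1 library left out. With equal sums Pdgfra (-0.12), Ddr2 (-0.0397) and Vim (-0.0382) changed sign. Without P2 replicate 1 Pdgfra changed sign, and without P1 replicate 3 or either of P2 replicates 1 and 3 S100a4 did. With 1 library left out, Pdgfra lay between -0.00525 and 0.0793 and S100a4 between -0.127 and 0.0893. The difference in the Fap to Dpt ratio was 0.0695 with a pseudocount of 0.1. Why these values moved was not tested. The labels number the replicates but do not say whether the numbers pair the samples. Deviations of same-numbered libraries correlated at -0.01, 0.10 and 0.01 across genes. A correlation over all genes cannot settle pairing for the fibroblast genes. With the replicate as a block the adjusted p of Thy1 in limma was 0.210. In that fit 3 members had an unadjusted limma p under 0.05, against 2 in the main fit, and 0 were called.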
